A study of Drosophila melanogaster with 3 samples.

Results

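The regions described here were weak but recurrent in chromatin immunoprecipitation followed by sequencing (ChIP-seq) of Eip75B from whole Drosophila melanogaster prepupae. Weak refers to their signal in the list pooled from the replicates. Recurrent means that a region of every replicate covered their summit, and some of those replicate regions had their own summit elsewhere. Whether the protein binds the regions described was not tested. They were chosen by signal. In the list made from the pooled replicates, regions were ranked by the signal the authors deposited, and the ranks below the 7803 optimal peaks of the series were kept down to rank 15000. Of these 7197 regions, 2084 (29%) were kept as members because their summit, the position of highest signal, lay inside one of the 15000 highest-signal regions of each of the 3 replicates. The members were 2084 of the 30000 regions in the pooled list. Rank, signal and recurrence therefore selected the members, and their values are given as descriptions without a test.

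The animals carried an eGFP exon in an intron of Eip75B (a MiMIC insertion line), so that the protein made from the locus was tagged. Anti-GFP antibody precipitated the chromatin from prepupae of both sexes together, of unknown age. The labels give 3 biological replicates in 1 group, with no condition to compare. Chromatin came from whole organisms, so a weak signal from many cells and a strong signal from few cells cannot be told apart. The replicates shared 1 control file per genome build according to the text records deposited with them, so their regions are not fully independent of each other. The optimal list is named for the irreproducible discovery rate (IDR) procedure, which compares the ranks of peaks across replicates. Here it was the same as the first 7803 ranks of the pooled list, so it ended at a limit of pooled signal. By the requirement used for members, 549 of its peaks lay in 2 replicate lists, 35 in 1 and 2 in none. Depth is unknown, since no source used here gives read numbers. Intervals around shares are exact 95% Clopper-Pearson intervals that cover counting error only. With 3 replicates in 1 group, the smallest p that an exact sign-flip test could give is 0.25, and no p is given.

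The nuclear receptor E75 is made from Eip75B, a gene that the steroid hormone ecdysone switches on as metamorphosis begins. Its ligand pocket holds heme, and it binds the same DNA element as the receptor Hr3, whose activating function it represses. The element is an AGGTCA-like core preceded by an A/T-rich stretch, and is called the E75/Hr3 site here. In prepupae the balance of E75 and Hr3 is known to set the timing of ftz-f1, a nuclear receptor gene that marks the middle of the prepupal period.

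The sequences below are the windows of 50 bp on either side of the summit for the members that held an E75/Hr3 site and overlapped no optimal region, outside 1 chromosome arm that is not shown. They are shown because they are the weak recurrent regions in which the receptor's own element stands near the summit. Each is the top strand of Release 6 (dm6), taken from RefSeq and named by the gene with the nearest transcription start. Capitals mark the site, which reads as its reverse complement, beginning TGACC, where it lies on the minus strand.
Eip75B, chr3L:17976558-17976658: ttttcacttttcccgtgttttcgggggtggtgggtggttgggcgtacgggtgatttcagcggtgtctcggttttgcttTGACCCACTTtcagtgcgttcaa
ftz-f1, chr3L:18788016-18788116: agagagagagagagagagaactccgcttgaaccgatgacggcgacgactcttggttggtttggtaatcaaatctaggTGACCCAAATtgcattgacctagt
wgn, chrX:18631504-18631604: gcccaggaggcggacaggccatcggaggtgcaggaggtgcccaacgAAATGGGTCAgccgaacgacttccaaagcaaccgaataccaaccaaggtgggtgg
CG6118, chr3R:15436822-15436922: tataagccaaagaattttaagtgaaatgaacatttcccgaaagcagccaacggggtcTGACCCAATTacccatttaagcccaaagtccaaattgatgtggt
CG15408, chr2L:3342254-3342354: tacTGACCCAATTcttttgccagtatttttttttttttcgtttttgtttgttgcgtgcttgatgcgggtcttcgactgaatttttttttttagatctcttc
natalisin, chr3R:14414618-14414718: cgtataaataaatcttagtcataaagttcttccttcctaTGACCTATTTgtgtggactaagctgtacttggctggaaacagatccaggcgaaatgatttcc
Pura, chr3L:7598451-7598551: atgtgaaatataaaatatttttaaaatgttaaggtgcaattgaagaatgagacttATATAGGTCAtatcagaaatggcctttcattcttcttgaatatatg
Neurochondrin, chr3R:6468208-6468308: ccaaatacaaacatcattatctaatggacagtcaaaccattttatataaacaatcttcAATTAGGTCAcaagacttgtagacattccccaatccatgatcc

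The window at Eip75B lay in an intron of the gene, 5169 bp from the nearest start and 877 bp from the nearest optimal summit. Its site began 28 bp to the right of the summit. Its pooled signal was 80.3 (rank 9083), and its signal was 24.8 in replicate 1, 27.3 in replicate 2 and 36.1 in replicate 3, at ranks 10329, 10670 and 6830. The window at ftz-f1 lay in an intron 13243 bp from a start, with the site 27 bp to the right of the summit. Its pooled signal was 66.6 (rank 10983), and the replicates gave 18.3, 23.9 and 17.7, at ranks 13986, 12188 and 14872. The ftz-f1 region was thus near the lower limit in replicates 1 and 3 and farther above it in replicate 2, whereas the Eip75B region ranked higher in replicate 3 than in the other two. At ftz-f1 the replicate summits lay 3, 2 and 27 bp from the pooled summit. The window at Neurochondrin, 179 bp from a start, was the closest to a transcription start among those shown, and that at CG15408 held the site farthest from its summit.

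Recurrence fell steeply with rank. Of the 7197 regions, 3283 lay in 2 replicate lists, 1676 in 1 and 154 in none, against the 2084 in all 3. Among the 1200 ranks directly below the optimal list (to rank 9003), 65.4% were members (62.6% to 68.1%), and among ranks 13804 to 15000, 5.76% (4.51% to 7.24%). By comparison, 92.5% of the optimal peaks met the same requirement, as did 3.05% of the ranks after 15000. The pooled signal of the members ran from 47.7 to 92.6 with a median of 77.2, and their deposited −log10 q-value from 1.38 to 3.24.

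**Figure D1:**
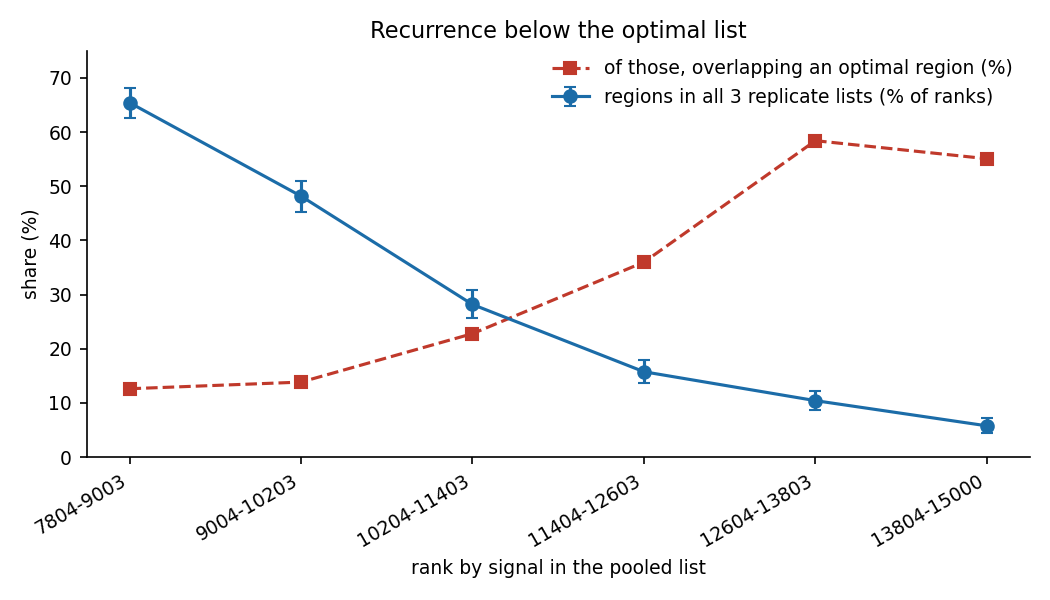
Share of pooled regions that lay in all 3 replicate lists (circles, with 95% intervals) and, of those, the share that overlapped an optimal region (squares), by rank in the pooled list. The first share fell from 65.4% to 5.76%, and the overlap share was 12.6% in the highest ranks and 55.1% in the lowest.

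Both limits of the choice cut through a continuous range of signals. The last optimal peak had a pooled signal of 92.5562 and the first region below it, itself a member, 92.5546. At the lower end the last member had 47.7009, and the first rank after 15000, also found in all 3 replicate lists but outside the chosen ranks, had 47.6799. In the replicates the values inside and outside the limit were 17.0188 and 17.0182, 19.5065 and 19.5051, and 17.5485 and 17.5441.

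The replicates contributed about equally to the choice. Replicate 1 was the missing list for 1047 of the 3283 regions found in 2 lists, replicate 2 for 1145 and replicate 3 for 1091. A region held by the other two lists was held by replicate 1 in 66.6% of cases, by replicate 2 in 64.5% and by replicate 3 in 65.6%. For regions held by only one other list these shares were 67.2%, 66.4% and 65.0%, and for regions held by neither they were 79.2%, 79.4% and 76.4%. Within these ranks, being in the other lists thus did not go with a higher share held, and the pooled rank itself was made from all 3 replicates. The regions each replicate missed differed in where they lay, however. Those missing only from replicate 1 were at promoters (summits no more than 1 kb from a start of a protein-coding transcript) in 43.8% of cases (40.8% to 46.9%), with a median GC content of 41.6% in the summit window. For those missing only from replicate 2 the share was 29.3% (26.6% to 32.0%) with a median GC content of 34.7%, and for replicate 3 it was 35.3% (32.5% to 38.2%) with 36.6%.

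The members were of 2 kinds. Of the 2084, 435 (20.9%, 19.1% to 22.7%) overlapped an optimal region and sat beside a stronger summit, and 1649 overlapped none. The latter are called stand-alone here, which means only that the regions did not overlap. Of the 1649, 268 (16.3%) had an optimal summit within 1 kb and a further 347 (21.0%) had the nearest one 1 to 2 kb away. This split depended on the limits chosen: the overlapping share was 69.4% of 382 members with the 10000 highest-signal regions of each replicate, and 6.46% of 1208 when a replicate summit within 100 bp was required. The summits of the 435 lay 199 to 560 bp from the nearest optimal summit, with a median of 202 bp and quartiles of 200 and 206 bp. No region below the optimal list, member or not, had an optimal summit nearer than 199 bp, so this is the closest spacing of summits in the pooled list between these groups. Each of the 435 adjoined a different optimal peak. The optimal neighbour had a signal of 92.97 to 744.9 with a median of 159, and the ratio of its signal to that of the member was 1.07 to 10.2 with a median of 2.34. Of the other regions of the same ranks, 9.04% overlapped an optimal region (8.26% to 9.85%), and of the ranks after 15000, 7.82% (7.40% to 8.26%). The rule itself favours a higher share in members. A summit beside a stronger peak meets the rule where that peak's replicate region covers it. How much of the difference this makes was not tested.

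**Figure D2:**
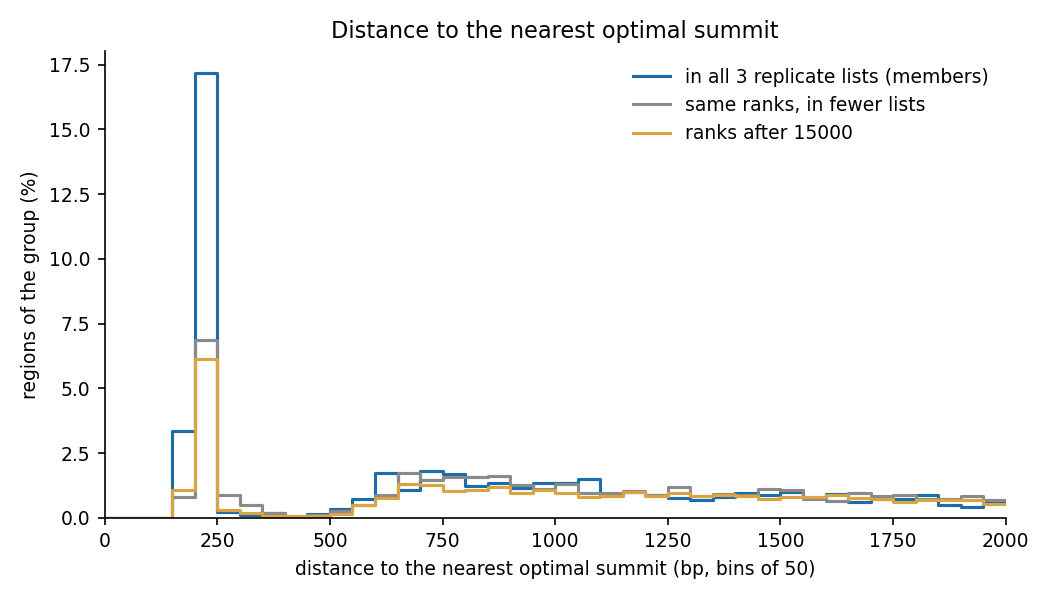
Distance from each summit to the nearest optimal summit in bins of 50 bp, as a share of each group, for members, the other regions of the same ranks and the ranks after 15000. All 3 groups begin at 199 bp and have their highest bin just above 200 bp, and the members' is the tallest. The rule that chose the members itself favours summits beside a stronger peak.

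A member's signal and rank in a replicate are those of the replicate region that held its summit. For the 435, that region often held the neighbouring optimal summit too. In 263 of them (60.5%) the replicate region that held the member summit also held an optimal summit in all 3 replicates, and in 426 (97.9%) in at least 1 replicate. For the 1649 stand-alone members the latter number was 3. A replicate summit lay within 100 bp of the member summit in 55.7% ± 3.27 of the 435 (SD, n = 3 replicates), in 87.2% ± 0.563 of the stand-alone members and in 95.9% ± 0.315 of the optimal peaks found in all 3 lists. All 3 replicates had such a summit for 1201 of the 2084 members (57.6%). These were 71 of the 435 and 1130 of the 1649 (68.5%), against 6418 of the 7217 optimal peaks (88.9%). By the measure of a shared summit, stand-alone members thus stood between the adjoining members and the optimal peaks. Overlapping members merged to 2038 regions, and 183 members (8.78%) had another member within 1 kb.

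Members lay mostly away from promoters. Of the 2084 summits, 682 (32.7%, 30.7% to 34.8%) were within 1 kb of a start, 970 (46.5%) were 1 to 10 kb away and 432 (20.7%) were farther. By annotation, introns held 54.7% of them and the space between genes 34.8%. Another 8.45% fell in 5' UTRs, 1.10% in coding exons and 1.01% in 3' UTRs. Over all 30000 pooled regions, 30.8% were at promoters, 54.4% in introns and 35.7% between genes, and optimal peaks had 54.6% in introns and 35.4% between genes. The promoter share was 29.8% (27.6% to 32.1%) in stand-alone members and 43.7% (39.0% to 48.5%) in those that overlapped an optimal region. It was 42.4% (41.3% to 43.5%) in optimal peaks, 41.8% (39.6% to 44.0%) in the 1950 optimal peaks with the lowest signal and 23.3% (22.6% to 23.95%) in the ranks after 15000. The median distance to a start was 2692.5 bp in members, 2978 bp in stand-alone members and 1604 bp in optimal peaks.

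The promoter share was also computed at each replicate's own summits. There it was 33.0% ± 0.0831 in members and 41.7% ± 0.0635 in the optimal peaks found in all 3 lists (SD, n = 3), a difference of -8.67 ± 0.0544 percentage points that was negative in 3 of 3 replicates. The same regions were measured in each replicate, and the replicate summits lay at most 212 bp from the pooled ones. A share within 1 kb could thus change little, and the shared sign is not separate support from each replicate. This SD is the spread of summit positions and not of membership.

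Against the other regions of the same ranks, the comparison depended on rank. Over all the ranks below the optimal list to 15000 the promoter share was 32.7% in members and 34.1% (32.8% to 35.4%) in the regions found in fewer lists, and these intervals overlapped. Within the first 1200 of them, to rank 9003, it was 32.1% (28.8% to 35.5%) in members and 42.4% (37.6% to 47.3%) in the others, and within ranks 9004 to 10203 it was 31.0% (27.2% to 34.9%) and 44.5% (40.6% to 48.5%). In ranks 12604 to 13803 the order was the opposite, with 45.6% (36.7% to 54.7%) in members and 29.95% (27.2% to 32.8%) in the others. There, 58.4% of the members overlapped an optimal region, and stand-alone members had a promoter share of 32.7% (20.3% to 47.1%). The optimal peaks of ranks 6604 to 7803 showed the same order as the highest members, with 39.4% (36.3% to 42.6%) in those found in all 3 lists and 51.3% (44.6% to 58.0%) in those found in fewer.

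**Figure D3:**
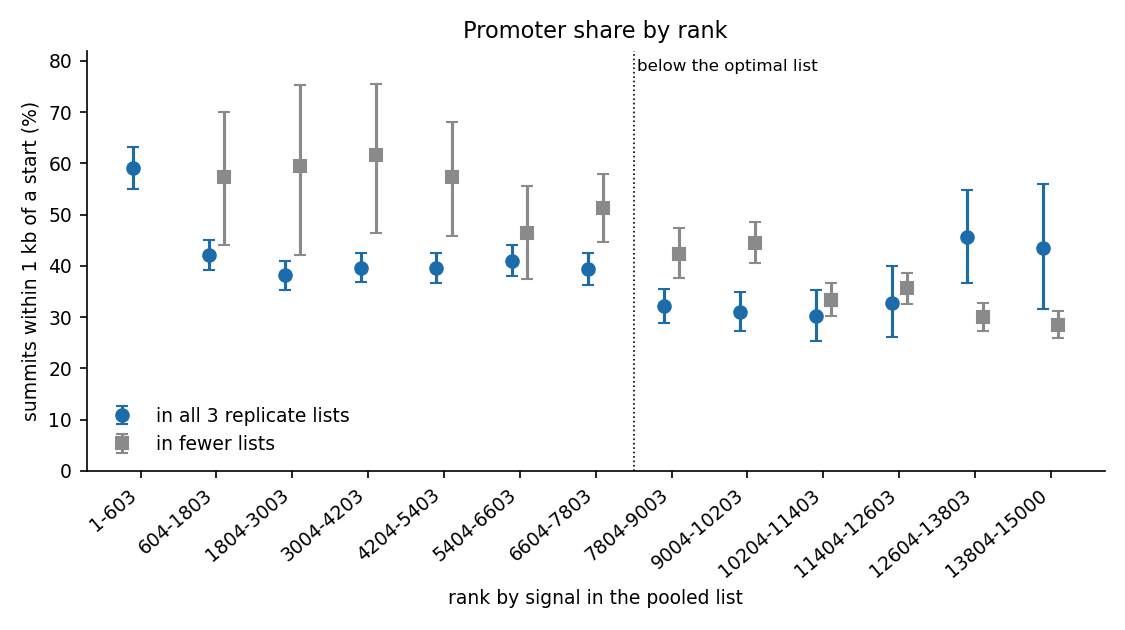
Promoter share (summits within 1 kb of a start) by rank in the pooled list, for regions in all 3 replicate lists (circles) and in fewer (squares), with 95% intervals; groups under 20 regions are not drawn. Below the optimal list, recurring regions have the lower share down to rank 10203 and the higher share in ranks 12604 to 15000.

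One replicate carried much of that difference. From the optimal list down to rank 10203, the promoter share was 31.6% (29.2% to 34.2%) in members and 43.7% (40.6% to 46.8%) in the others, a difference of -12.1 percentage points. When recurrence was asked of replicates 2 and 3 only, the shares were 35.7% (33.4% to 38.03%) and 39.5% (35.9% to 43.1%), a difference of -3.78 points with overlapping intervals. Without replicate 2 the difference was -16.1 points, and without replicate 3 it was -11.6 points. By single lists, regions held and not held by replicate 1 had promoter shares of 33.8% and 53.3%, those of replicate 2 had 36.8% and 36.9%, and those of replicate 3 had 35.6% and 43.7%. The part of GC content in this was not tested.

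The E75/Hr3 site was rare in members, and its share was higher at the summit than in flanks 300 bp away. Of the 2084 windows around the summit, 50 bp on either side, 18 held the site on either strand (0.864%, 0.513% to 1.36%). Windows of the same width centred 300 bp to either side held it in 12 of 4168 cases (0.288%, 0.149% to 0.502%). The corresponding shares were 0.730% (0.554% to 0.945%) and 0.404% in optimal peaks, 0.665% (0.461% to 0.928%) and 0.460% in the other regions of the same ranks, and 0.507% and 0.337% in the ranks after 15000. Over all 30000 pooled regions 0.617% of the summit windows held the site. At nearer and farther single offsets the members' intervals overlapped that at the summit, with 0.672% (0.368% to 1.12%) at 100 bp to the left, and only the window 300 bp to the right, with 3 sites, lay apart (up to 0.420%). At the replicates' own summits the share was 0.880% ± 0.121 in members and 0.711% ± 0.0445 in optimal peaks found in all 3 lists (SD, n = 3), a difference of 0.168 ± 0.0865 percentage points. The intervals of members and optimal peaks overlapped, and no difference between them was detectable at these numbers. In the 1649 stand-alone members alone, the share was 0.788% (0.420% to 1.34%) at the summit and 0.334% (0.167% to 0.596%) beside it, with overlapping intervals. Of the 18 members, 13 overlapped no optimal region and 4 lay at promoters.

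**Figure D4:**
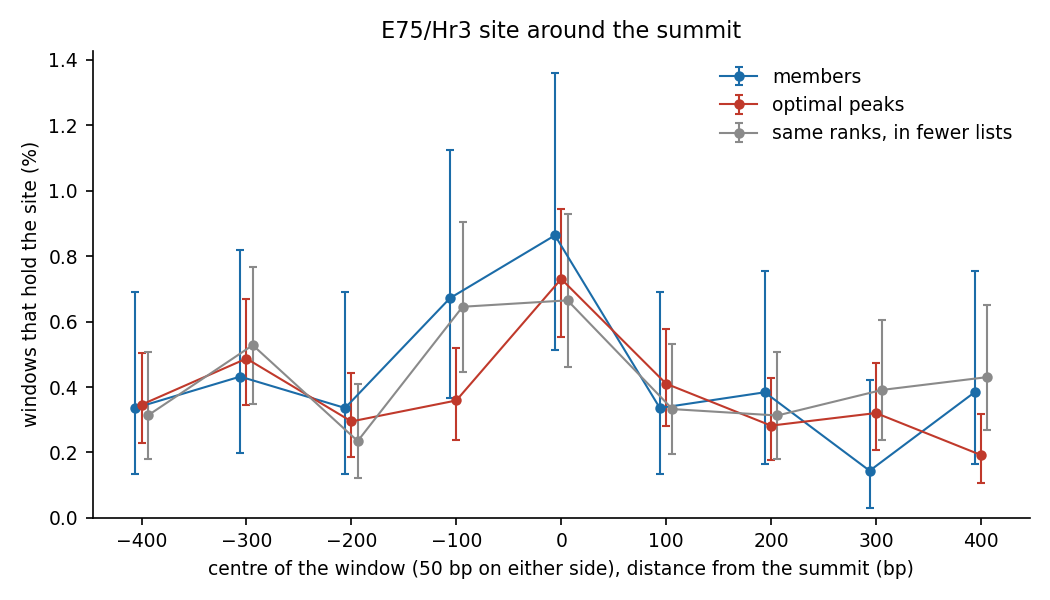
Share of windows of 50 bp on either side of their centre that held the E75/Hr3 site, by distance of the window's centre from the summit, with 95% intervals, for members, optimal peaks and the other regions of the same ranks. Each group has its highest share at the summit, with 0.864% in members, and the intervals of the 3 groups overlap there.

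Of the other 15 motifs searched, DREF and M1BP had intervals at the summit and beside it that did not overlap. TATCGATA, bound by the transcription factor DREF, was in 0.864% of member windows (0.513% to 1.36%) and 0.264% of flanking ones (0.132% to 0.472%). GGTCACACT, bound by M1BP at promoters, was in 0.816% (0.476% to 1.30%) and 0.216% (0.0988% to 0.410%). In stand-alone members the intervals overlapped for DREF, with 0.788% (0.420% to 1.34%) at the summit and 0.243% (0.105% to 0.477%) beside it. For M1BP they did not, with 0.849% (0.465% to 1.42%) and 0.121% (0.0331% to 0.310%). At the replicates' own summits of all members the shares were 0.784% ± 0.0554 for DREF and 0.544% ± 0.0277 for M1BP (SD, n = 3). Optimal peaks had 0.871% at the summit and 0.263% beside it for DREF, and 0.4998% and 0.224% for M1BP. CGATA, the core bound by the insulator protein BEAF-32 and also contained in the DREF motif, was in 12.6% and 10.5%. The plain core AGGTCA, which overlaps many E75/Hr3 sites, was in 2.64% (1.99% to 3.42%) and 2.11% (1.70% to 2.59%), and GAGAG, bound by GAGA factor, in 14.3% and 14.5%. For these last 3 motifs the intervals overlapped. The palindrome bound by the ecdysone receptor EcR with its partner usp was found in no member window (0 of 2084, exact interval up to 0.177%; 3 counts would be 0.144%). A match is a description of the sequence and not of binding.

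At genes of the ecdysone hierarchy, members were added to loci that already held optimal peaks. Of the 20 genes in that list, 15 had a member summit in the gene body, 44 summits in all, of which 32 overlapped no optimal region. Over all protein-coding genes, 950 (6.81%) had a member in the body. The part of gene length, up to 113744 bp at Eip75B, was not tested. The same 20 genes held 167 optimal summits, and 19 of the 20 had such a summit in the body. None of the 15 lacked an optimal summit, and 1 gene, Eip93F, had more member than optimal summits, with 4 against 2. Eip93F encodes a transcription factor that directs histolysis of larval tissue. Its 4 members lay in introns, at pooled signals of 60.6 to 81.7, and none overlapped an optimal region. In all 5 ecdysone genes with a member near the promoter, an optimal summit was near the promoter too. The same was true of 17 of the 20 genes whether or not they had a member, so these are counts only.

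Eip75B itself (FBgn0000568; 3L, 17950953 to 18064696, minus strand) held 10 member summits, all in introns, beside 38 optimal ones, and 1 further member lay 796 bp upstream of its start. Of the 10, 8 overlapped no optimal region. The highest had its summit at 18021186, with a pooled signal of 89.6 and replicate signals of 33.2, 28.3 and 28.6. The member at 17973177 was uneven, with a signal of 77.5 (rank 2569) in replicate 2 against 23.4 (rank 10955) and 22.3 (rank 11783) in replicates 1 and 3. The members at 17995654 and 17995854 were held by a single region of replicate 2, so they were not separate regions in that replicate. Only kirre, which encodes a cell adhesion protein of muscle founder cells, and Tet, which encodes a dioxygenase of the Tet family, held as many, with 10 each. Glut4EF and the overlapping gene CG46467 shared 9. Per 10 kb, Tet held 1.08 member summits, Eip75B 0.879, Glut4EF 0.746 and kirre 0.254. These genes were chosen by number and not by density, which was higher in Roc2, named after its value was seen, with 6 members and 2.26 per 10 kb.

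**Figure D5:**
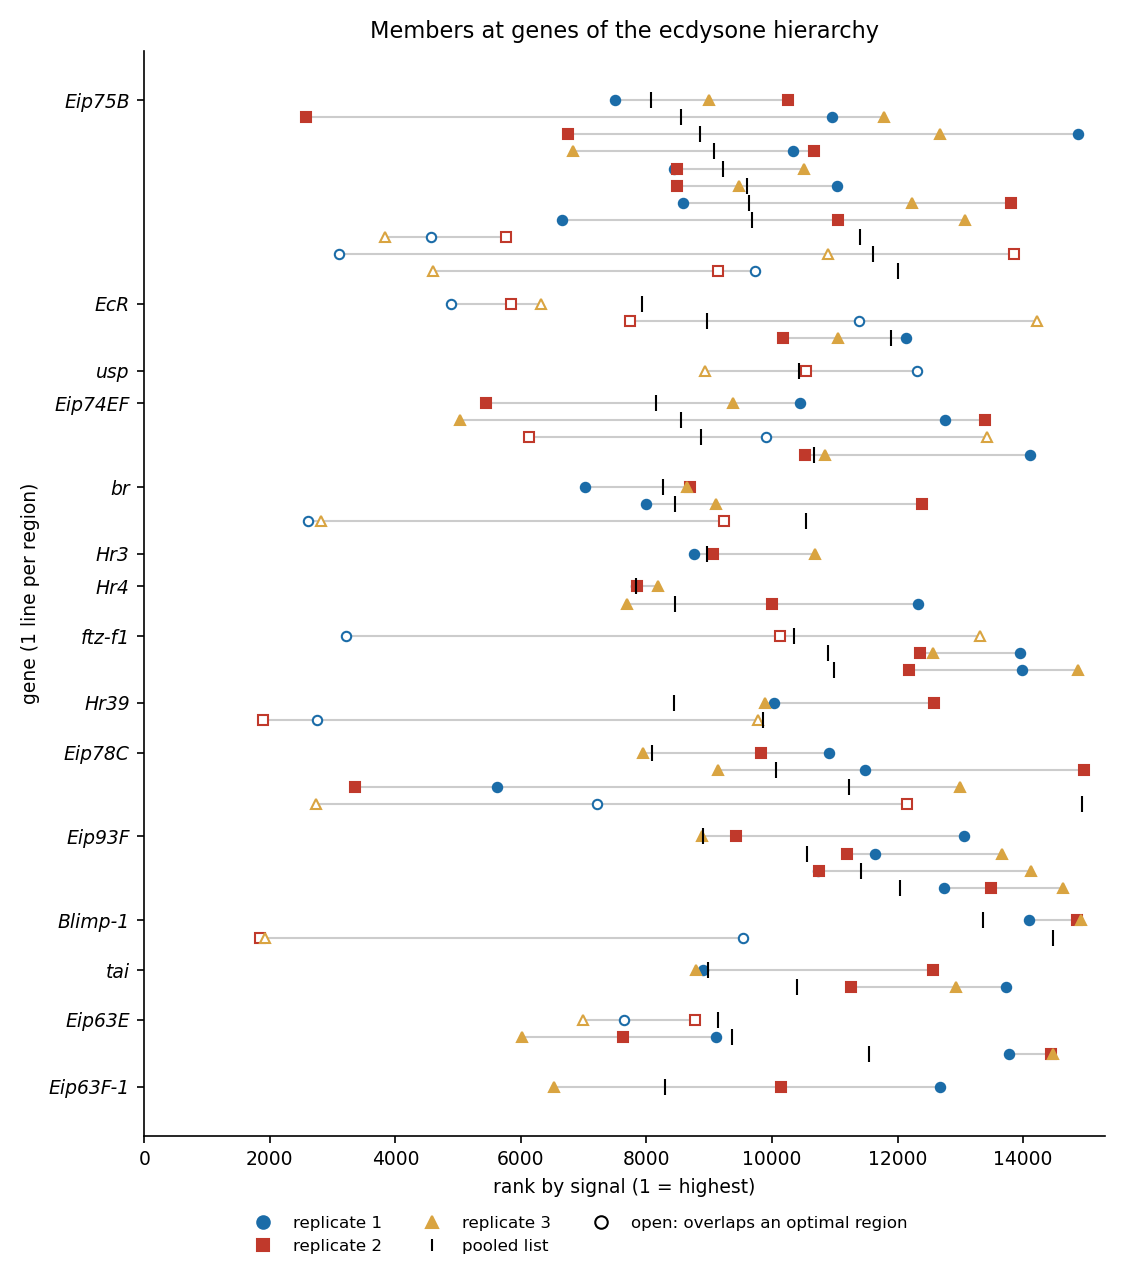
Rank of each member at an ecdysone hierarchy gene in the 3 replicate lists and in the pooled list (1 is the highest signal), 1 line per region; open symbols mark members that overlap an optimal region. Several open symbols lie at much higher ranks in a replicate than in the pooled list, as at Blimp-1, where replicates 2 and 3 rank 1841 and 1925 and the pooled list 14482. A replicate rank is that of the replicate region that held the member summit, which can have its own summit elsewhere.

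Among the receptors that act with or after E75, EcR, the ecdysone receptor, held 3 members and 17 optimal summits. Its only stand-alone member, at 6139121 on 2R, had a pooled signal of 61.2 and replicate signals of 21.1, 28.5 and 23.6. The gene of its partner usp had 1 member, 413 bp from the start and 199 bp from an optimal summit with a signal of 236. Hr3 had 1 member at 10212515 on 2R, in an intron, with a pooled signal of 81.1 and replicate signals of 28.9, 31.7 and 24.4, in an interval that 2 other genes, CG12912 and CG46321, also cover. Hr4, another ecdysone-induced receptor gene, had 2 members, both in introns, with pooled signals of 92.3 and 85.7. The first of these gave close values in the replicates, 31.9, 35.9 and 31.3. ftz-f1 had 3 members, of which the one at 18789843 adjoined an optimal summit 201 bp away and gave 66.4 in replicate 1 against 28.6 and 19.8 in the others. The replicate 1 region that held it had its own summit 205 bp away, against 9 and 13 bp in replicates 2 and 3. The 66.4 is thus not a value of the member alone. The remaining ftz-f1 member without a site, at 18761796, had a pooled signal of 67.2 and replicate signals of 18.3, 23.7 and 21.0. Hr39 had 2 members, and Eip78C, a receptor gene related to Eip75B, had 4. One of the 4, at 21253228, lay 204 bp from an optimal summit although the regions did not overlap.

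Among the other early genes, Eip74EF, an ETS-domain factor, had 4 members beside 14 optimal summits, and 3 of the 4 overlapped none. The one at 17590243 was 10905 bp from the nearest optimal summit, the farthest in that gene, with a pooled signal of 84.7 and replicate signals of 20.1, 21.9 and 45.9. Replicate 3 was thus the high one there, also by rank (5027 against 12748 and 13397). br, a zinc finger gene needed for the larval to pupal change, had 3 members, 2 of them within 1 kb of a start. The one at 1612105 was 203 bp from a start and even in the replicates, with signals of 35.2, 32.9 and 29.6. Blimp-1, a repressor that delays ftz-f1 in prepupae, had 2 members of opposite kinds. The stand-alone one, at 5639741, had a pooled signal of 54.1 and 18.1, 19.7 and 17.7 in the replicates, while the other, 199 bp from an optimal summit, had 49.6 in the pooled list and 26.7, 94.7 and 89.6 in the replicates. The replicate regions that held the latter summit had their own summits 71, 121 and 182 bp from it. Their signals are thus those of regions with a highest point elsewhere, and the part of the neighbouring peak in them was not tested.

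Further members lay in tai, a coactivator of EcR (2), in the kinase gene Eip63E (2 in the body and 1 outside it, 116 bp from a start) and in Eip63F-1, a calcium-binding protein gene (1). None lay in the body or near the start of Kr-h1, which responds to juvenile hormone, the corepressor gene Smr, crc, MsrA, Cth or the clock gene Clk. Smr nevertheless held 12 optimal summits.

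Over all 13945 protein-coding genes, 799 (5.73%) had a member summit within 1 kb of a start, and 3296 (23.6%) had an optimal one. Of the 799, 438 also had an optimal summit, which is 54.8% of the genes with a member and 13.3% of those with an optimal peak. The members thus added 361 genes (2.59%) to those with an optimal promoter peak, or 3.39% of the 10649 genes without one. In 3 of the 361 the member overlapped an optimal region.

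In the ribosomal protein lists, about as large a share of genes had a member as over all genes (5.73%). Of 93 cytosolic ribosomal protein genes, 62 had an optimal promoter summit, 5 (5.38%) had a member, and 1, RpL6, had only a member. Of 73 mitochondrial ribosomal protein genes, 28 had an optimal summit, 4 had a member and 1, mRpL55, only a member. The mRpL55 summit was 681 bp from the start, in the 5' UTR of another gene, cdi, and 741 bp from an optimal summit. At RpL6 the summit was 242 bp from the start, with replicate signals of 35.5, 34.4 and 32.2, which lay close together. No gene of the proteasome (48 genes), the Hippo pathway (15) or the larval fat body list (14) had a member at its promoter, and 8, 11 and 6 of them had an optimal summit. The exact intervals for members reached 7.40%, 21.8% and 23.2%. All of these lie above 5.73%, so the lists are too small to tell them from all genes.

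Members also lay at promoters of patterning genes. Of 8 Hox genes none had an optimal promoter summit and 2, Antp and abd-A, had a member. At Antp, which specifies thoracic identity, the summit was 294 bp from a start, with a pooled signal of 90.98 and replicate signals of 44.6, 27.5 and 20.4. At abd-A, an abdominal identity gene, it lay in the 5' UTR 80 bp from a start, with a pooled signal of 68.9 and replicate signals of 19.8, 23.0 and 20.8, so replicate 1 was the highest at Antp and the lowest at abd-A. Of 25 developmental signalling genes, 15 had an optimal summit and 5 a member. In 3 of these there was no optimal summit at the promoter. They were Ser, a Notch ligand gene with a pooled signal of 91.7, the ligand gene hh with 85.0, and arm, the beta-catenin gene, with 66.5. These lists hold few genes, and 2 of 8 or 3 of 25 set beside 2.59% of all genes is a count only.

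Among the genes of metamorphosis and tissue remodelling, members without an optimal promoter summit stood at Dronc, the initiator caspase, at Atg16, an autophagy gene, and at Mmp2 and zip, which encode a matrix metalloprotease and the non-muscle myosin heavy chain. Such genes were 1 of 16 in the cell death list, 1 of 20 in autophagy and 2 of 19 in disc eversion and matrix. The chromatin remodelling and muscle lists had 1 of 20 each. Set beside 2.59% of all genes, these are counts only. Mmp2 had its summit 21 bp from a start, in the 5' UTR, with replicate signals of 20.1, 23.5 and 19.1. At zip they were 34.6, 42.3 and 24.6. Dronc had a pooled signal of 51.5, near the lower limit, although the replicates gave 31.7, 44.0 and 25.2, and their summits lay 103 to 185 bp from the pooled one. Hr38, a nuclear receptor that pairs with usp, was the only gene of 13 other nuclear receptors with a member and no optimal promoter summit, at 209 bp from a start, with replicate signals of 27.3, 37.7 and 18.3. osa, a chromatin remodelling subunit, had a member 860 bp from a start that adjoined an optimal summit 209 bp away. Mef2, a muscle transcription factor, had one 42 bp from a start, with a pooled signal of 89.1, and the nearest optimal summit, 1096 bp away, was the strong peak ranked 34.

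In the lists of sensory, detoxification, cuticle and secreted proteins, counts are read beside the 5.73% of all genes with a member promoter summit and the 2.59% with a member only. Of 119 odorant and gustatory receptor genes 2 had a member promoter summit (Or67a and Gr77a), of 85 cytochrome P450 genes 1 (Cyp9c1), and of 70 Cpr cuticle protein genes 3 (4.29%), of which Cpr49Ah and Cpr73D had no optimal one. None of 17 late puff and glue genes or of 19 genes of ecdysteroid synthesis and uptake had one. In the immunity list of 23 genes PGRP-LC, a peptidoglycan receptor, was the only gene with a member and no optimal promoter summit, and the circadian, insulin and TOR, and neuronal lists held no such gene. The PGRP-LC summit lay in the 3' UTR of its neighbour PGRP-LA.

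The 10 members with the highest pooled signal, 92.5 to 92.6, overlapped no optimal region. They had the nearest starts of CG14050, Hph, ATPCL, CG12680, CG43192, sky, Cdc45, CenG1A, spir and CG7991. The one at ATPCL, the ATP citrate lyase that supplies acetyl-CoA for lipid synthesis, was 137 bp from a start, with replicate signals of 38.5, 35.8 and 32.9. It was also within 1 kb of a start of Tmem131. The one nearest to sky was uneven, with 17.3 in replicate 1 (rank 14725) and 32.9 and 36.2 in the others. A summit on X at 1030657, 101 bp from starts of both Cdc45 and Rpp21 and 839 bp from CG14630, counted for all 3 genes. Further genes outside the lists with a member and no optimal promoter summit were sens, a proneural zinc finger gene (78 bp from the start, replicate signals of 26.4, 45.0 and 21.4), Axud1, CG15209, CG10581 and CG32855.

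Members were spread over all arms. Their density was 18.2 per Mb on 3L (16.7 to 19.9, exact Poisson interval), 16.1 on X (14.6 to 17.8), 14.9 on 3R (13.6 to 16.3), 14.8 on 2L (13.3 to 16.5) and 13.8 on 2R (12.4 to 15.4), and chromosome 4 held 13 members. The interval of 3L lay above those of 2L, 2R and 3R but overlapped that of X. Over all 30000 pooled regions 3L also had the highest density, with 240 per Mb against 200 to 233 on the other large arms. Of all regions in these ranks, the share that recurred was 31.5% on 3L (29.2% to 33.8%) and 27.0% to 28.9% on the other large arms. The interval of each of those arms overlapped that of 3L.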

How the data were processed

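ChIP-seq of 3 biological replicates was analysed from deposited region lists on dm6. The authors deposited a signal for each region, a −log10 q-value and a summit offset (column 10, bp from the region's start). No source used here gives the peak caller, the aligner or the IDR threshold. The signal is the authors' own value per region and was used to rank and describe regions within 1 list. Where signals of different replicates stand side by side, they are not corrected for depth, and their order can differ from that of the ranks. Each of the replicate and pooled lists held 30000 regions. The first 7803 ranks of the pooled list were the optimal list, and all regions lay within the arms of Release 6.

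Summits were assigned to the 13945 protein-coding genes of Ensembl release 115, with every transcript start used. Where annotations overlapped, a coding exon came before a UTR, a UTR before an intron, and an intron before intergenic space. Windows were read from the RefSeq Release 6 assembly. In 23 gene lists, 7 symbols were matched through synonyms. A further 4 symbols that first found no gene were respelled, and 2 (ban and Cyp307a2) were left out. Computation used Python 3.11.15, NumPy 2.4.6, SciPy 1.17.1 and Matplotlib 3.10.9, and the lookups and motif search were tested on simulated data.

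Members, lists and tests were chosen with earlier results of these data known. Always named were the ecdysone hierarchy genes and Clk. Also named were genes nearest to the 10 highest-signal members, the 5 with most summits in the body, up to 3 per list with a member and no optimal promoter summit, and 10 such genes outside the lists. Sequences were shown for stand-alone members with the E75/Hr3 site. Alternatives changed the list length, the matching rule, the ranks, the build, the promoter distance and the window, or left out a replicate. The split of promoter shares by rank, and its repeat without each replicate, were added after the values were seen.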

Additional observations from a re-analysis of the deposited data

How the results depend on the processing

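The 4 values were the number of members (2084), their promoter share (32.7%), the share that overlapped an optimal region (20.9%) and the E75/Hr3 site share (0.864%). With the 10000 highest-signal regions of each replicate they became 382, 40.3%, 69.4% and 0.262%, and with 20000 they became 3966, 31.3% and 14.0%. Matching regions by an overlap of 1 bp gave shares of 37.7%, 29.7% and 0.731%. Asking for a replicate summit within 100 bp gave 1208 members, 27.9%, 6.46% and 1.08%. Ending the ranks at 11000 gave 31.2%, 14.4% and 0.998%. Merged members gave 33.1% and 21.3%, and dm3 lists an overlap share of 23.3%. Leaving out 1 replicate, which loosens the rule by construction, gave 3131 to 3229 members, promoter shares of 31.5% to 36.4%, overlap shares of 16.2% to 18.1% and site shares of 0.693% to 0.894%. Promoter distances of 500 bp and 2 kb gave 24.7% and 44.3%, and stand-alone members 29.8%. A limit of 500 bp between summits gave an overlap share of 21.2%. Windows of 25 and 100 bp on either side gave site shares of 0.528% and 1.68%. Where no construction shows the cause, it was not tested.

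Under the alternatives run with a distance of 1 kb the promoter share was 27.9% to 40.3%, the latter over only 382 members. It was not computed on dm3. With 1 group there was no fit to which a replicate block could be added, and differences taken within each replicate stand in the report. Depth is unknown, and whether more reads would add members was not tested.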
